A study of Mus musculus with 21 samples.

Results

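Dark zone cells are the dividing and mutating B cells of the germinal centre, and the values here follow them over 3 days of one response. They were taken as the cells of the non-plasma-cell (non-PC) fraction that the authors' deposited annotation names DZ. There were 2347 such cells among 6619 in all. They came from 6 mice: 214 and 414 cells on day 10, 282 and 348 on day 16, and 621 and 468 on day 22. A further 35 cells named DZ lay in the PC fraction and were not used.

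All mice were immunised under the skin at the tail base with 100 µg of NP-KLH, a hapten on a carrier protein, in Sigma Adjuvant System. All received 5 mg of tamoxifen by mouth at least 6 days later, which switches on Cre-ERT2 and with it the eYFP label. Draining lymph node cells were tagged with a hashtag antibody for each mouse. Live IgD-negative, eYFP-positive B cells were then sorted, pooled over mice and captured with the 10x 5' chemistry. The groups were 2 mice each at 10, 16 and 22 days of the first response to the antigen. Strain, sex, age and the promoter that drives Cre-ERT2 are not given in the sources used here. No unimmunised or untreated mouse was analysed here, and each mouse was taken on 1 day only. A difference between days therefore cannot be told apart from a difference between the mice taken on them. The time from tamoxifen to harvest on each day is not given there either.

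As background, germinal centre B cells move between a dark zone, where they divide and mutate their antibody genes, and a light zone, where they test the mutated receptor on antigen and seek help from T cells. The chemokine receptor CXCR4 holds cells in the dark zone, and the transcription factor FOXO1 keeps its programme. As a response goes on, cells with better receptors are selected and the set of variable genes in use shifts. Antibody class switching replaces the μ constant region with a downstream one such as a γ region.

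The label held against the dark and light zone markers. Of 8 dark zone markers, 7 were higher in DZ than in light zone (LZ) cells of the same mouse in 6 of 6 mice, and Foxo1 in 5 of 6. All 4 light zone markers were lower in 6 of 6, Cd83 for example with a median of 112 CPM in DZ and 510.5 CPM in LZ cells. The plasma cell gene Prdm1 lay at 0.49 to 0.93 CPM and Sdc1 at 0 to 0.38 CPM. The plasma cell markers Xbp1 and Jchain were not low, with DZ medians of 112 and 1551 CPM, against 106 and 964 CPM in LZ cells. They were higher in DZ than in LZ cells of the same mouse in 4 and 6 of 6 mice. Summed counts were 2617037 to 6442927 UMIs (unique molecules) a mouse, and no DZ barcode was shared with the PC fraction. The myeloid genes Lyz2 and Tyrobp had means of 2.01, 9.24 and 17.1 CPM and of 1.63, 1.82 and 7.34 CPM on days 10, 16 and 22, while the third defining myeloid gene, Csf1r, was at 0 to 0.76 CPM. The 10 myeloid markers summed to 15.3 and 6.90, 13.8 and 23.9, and 35.2 and 33.6 CPM in the mice of days 10, 16 and 22. The 8 naive B cell markers summed to 206 and 202, 171 and 159, and 131 and 163 CPM. Of the tested members of the T cell (2), myeloid (3), stromal (2), erythroid (2) and naive (6) lists 0 passed in each comparison. With immunoglobulin genes out of the edgeR fit some did. Lyz2 and Tyrobp, 2 of the 3 myeloid genes, were higher at day 22 than at day 10 by 3.27 (adjusted p = 2.2e-06) and 2.33 (adjusted p = 0.000473), Tyrobp also in the late step (adjusted p = 0.0280). Of the 5 naive genes then tested Cd38 and Fcer2a were lower, with −1.98 (adjusted p = 0.00424) and −0.87 (adjusted p = 5.7e-05). The T cell gene Lck passed over the 3 days (adjusted p = 0.0375) and was higher in the early step. It was seen in 41.5% of DZ and 54.6% of LZ cells. The T cell markers Cd3e, Cd3d and Trac lay at 0 to 0.36, 0.19 to 1.15 and 0 to 0.73 CPM in DZ cells. The part that cells of these other types had in the results was not tested. Day 22 mouse 1 stood apart in 4 genes of the Y chromosome, which summed to 58.4 CPM there and to 143 to 167 CPM in the other 5 mice. Xist had 0 UMIs in the DZ cells of all 6 mice. Without that mouse 20 of the 67 genes called at day 22 against 10 kept their call.

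The question put to the cells was which genes changed over the response and whether they did so early, by day 16, or late, after it. Counts were summed per mouse and tested with edgeR's quasi-likelihood F test, with p-values adjusted over all 9487 genes tested and a threshold of 0.05. CPM, the usual depth-scaled unit of counts, were taken at the fitted library size, and a pair of values for a day gives its mouse 1 and mouse 2. Over the 3 days 36 genes (0.379%) passed, 11 of them among 179 immunoglobulin genes (6.15%) and 25 among 9308 others (0.269%). Day 16 against day 10 gave 20 genes (0.211%), 7 higher (0.0738%) and 13 lower (0.137%). Day 22 against day 16 gave 5 genes (0.0527%), 1 higher (0.0105%) and 4 lower (0.0422%), and all 5 were immunoglobulin genes. Day 22 against day 10 gave 67 genes (0.706%), 31 higher (0.327%) and 36 lower (0.379%). Of these, 13 were immunoglobulin genes (7.26% of those tested) and 54 were not (0.58%). At an unadjusted p under 0.05 the early step held 695 genes (7.33%), the late step 400 (4.22%) and the net comparison 1041 (11%).

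These counts leaned on single mice and on the immunoglobulin genes in the fit. Without day 10 mouse 2 there were 14 genes over the 3 days, 4 in the early step and 17 in the net comparison. Without day 22 mouse 1 the net comparison gave 23 genes, and without day 22 mouse 2 there were 62 over the 3 days, 32 in the early and 17 in the late step. The early step gave 5 genes without day 16 mouse 1 and 3 without day 16 mouse 2, and the late step 8 and 3. The early genes without day 16 mouse 1 or mouse 2 shared 1 gene each with the 20, and those without day 10 mouse 2 shared 3. Of the early genes called without day 10 mouse 2 or day 16 mouse 1, 0 were outside the immunoglobulin genes, and without day 16 mouse 2 it was 1. With immunoglobulin genes left out of the fit, 207 of 9308 genes (2.22%) passed over the 3 days, 76 (0.817%) in the early step, 8 (0.0859%) in the late step and 283 (3.04%) in the net comparison, 144 higher (1.55%) and 139 lower (1.49%). Among the 8 of the late step Emp2, Rgs13, Pafah1b3 and Tyrobp were higher and Ly6d and Vim lower. That fit called all 25, 13 and 54 other genes of the first fit over the 3 days, in the early step and in the net comparison.

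Among the 13 non-immunoglobulin genes of the early step were 4 members of the interferon list, and all 4 fell. Type I interferons act through a factor complex that holds IRF9 and binds short GAAA repeats in the promoters of target genes. Of 38 genes in the interferon list 36 were in the files and 26 were tested. Over the 3 days 6 passed, against 36 of 9487 genes (0.379%). From day 10 to 16, 4 fell and 0 rose, against 0.137% of all genes that fell. From day 10 to 22, 7 fell and 0 rose, against 0.379%. Both day 22 mice lay below both day 10 mice in 18 of the 26, against 21.4% of all genes tested. The list's median log2 difference was −1.17 at day 16 against 10, 0.10 at day 22 against 16 and −0.93 at day 22 against 10, beside 0.00 in each over all genes.

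The promoters of 4 of the genes that fell are shown because their letters can be read against that binding site. They run from 250 bases before to 30 bases after the start of the RefSeq transcript (GRCm38.p6), 5′ to 3′ on the gene's own strand, and capitals mark GAAA, any 2 bases and GAAA again, or the reverse complement of that motif.
Bst2 (chr8:71537443-71537722, minus strand): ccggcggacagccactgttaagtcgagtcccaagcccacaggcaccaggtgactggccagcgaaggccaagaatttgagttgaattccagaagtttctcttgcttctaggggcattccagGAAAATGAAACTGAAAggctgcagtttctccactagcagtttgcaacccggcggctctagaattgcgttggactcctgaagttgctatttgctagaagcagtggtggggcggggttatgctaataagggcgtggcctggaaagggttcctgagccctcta
Lgals9 (chr11:78984895-78985174, minus strand): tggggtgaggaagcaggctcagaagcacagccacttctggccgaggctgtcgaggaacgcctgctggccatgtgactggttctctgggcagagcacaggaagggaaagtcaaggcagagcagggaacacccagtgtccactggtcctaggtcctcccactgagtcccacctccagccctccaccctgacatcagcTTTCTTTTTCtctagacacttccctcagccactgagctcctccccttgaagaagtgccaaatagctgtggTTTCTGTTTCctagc
Trim30a (chr7:104465164-104465443, minus strand): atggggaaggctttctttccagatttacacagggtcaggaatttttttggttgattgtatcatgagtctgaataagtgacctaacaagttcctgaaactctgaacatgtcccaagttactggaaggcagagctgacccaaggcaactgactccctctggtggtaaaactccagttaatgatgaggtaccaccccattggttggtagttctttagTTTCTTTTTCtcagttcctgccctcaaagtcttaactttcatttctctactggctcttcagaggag
Irf7 (chr7:141266395-141266674, minus strand): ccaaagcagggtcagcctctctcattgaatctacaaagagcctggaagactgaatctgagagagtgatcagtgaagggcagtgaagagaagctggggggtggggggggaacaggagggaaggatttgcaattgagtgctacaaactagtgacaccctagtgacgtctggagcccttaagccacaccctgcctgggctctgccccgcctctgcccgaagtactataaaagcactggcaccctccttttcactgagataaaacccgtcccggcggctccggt
The Bst2 window holds 2 overlapping matches, 130 and 124 bases before the start. Lgals9 holds 2 on the other strand, 55 bases before and 15 bases after its start. Trim30a holds 1 on the other strand, 36 bases before its start. It has 2 RefSeq starts, and the window shown was picked as the one with the most matches. The Irf7 window holds none, which says only that these letters are not in it. For the counts that follow, a gene with several starts was taken to match if any of its windows did. At least 1 match lay in the window of 21 of the 30 list genes in the promoter table, against 3.80% of all 27025 genes in it. Among the list genes tested in these cells a match lay in 11 of the 18 in it, against 3.59% of all genes tested and in it. Of the non-immunoglobulin genes lower at day 22 than at day 10 it lay in 6 of the 21 found in the table, and of those higher in 2 of 24. A match describes letters and is not a measured site.

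Irf7 (chr7:141262706-141266481, minus strand, GRCm38), the transcription factor that amplifies the interferon response, had 58.8 and 65.3 CPM on day 10, 25.4 and 26.9 CPM on day 16, and 26.8 and 27.4 CPM on day 22. Both later groups lay below both day 10 mice and overlapped with each other. The log2 difference was −1.25 ± 0.12 (SE) at day 16 against 10 (adjusted p = 0.0110, edgeR quasi-likelihood test) and 0.05 ± 0.12 at day 22 against 16. Trim30a, an interferon-induced member of the tripartite motif family, had 33.7 and 42.2 CPM on day 10, 19.6 and 15.3 CPM on day 16, and 16.2 and 18.2 CPM on day 22. It differed by −1.15 ± 0.18 in the early step (adjusted p = 0.0484, edgeR quasi-likelihood test) and by −0.01 ± 0.18 in the late one. Ifi203, of the DNA-binding HIN-200 family, was scarcer, with 8.62 and 10.8 CPM on day 10, 1.07 and 1.21 CPM on day 16, and 1.08 and 1.30 CPM on day 22. Its early difference was −3.07 ± 0.37 (adjusted p = 0.0202, edgeR quasi-likelihood test). Dhx58, the RNA sensor LGP2 and not a member of the list, was at 21.9 and 23.9 CPM on day 10, 10.7 and 9.21 CPM on day 16, and 12.9 and 13.2 CPM on day 22, an early difference of −1.22 ± 0.18 (adjusted p = 0.0392, edgeR quasi-likelihood test). Ly6a, the surface protein Sca-1, was the most abundant of the 4 list members that fell early, with 297 and 363 CPM on day 10, 181 and 181 CPM on day 16, and 191 and 244 CPM on day 22 and a difference of −0.87 ± 0.13 (adjusted p = 0.0392, edgeR quasi-likelihood test). Its net difference of −0.61 ± 0.13 was not called (adjusted p = 0.0787, edgeR quasi-likelihood test).

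Several interferon-induced genes fell over the 3 days or in the net comparison with the drop in their means before day 16, though that step was not called alone. Bst2, the virus tether tetherin, had 39.2 and 54.7 CPM on day 10, 17.5 and 23.3 CPM on day 16, and 19.9 and 18.9 CPM on day 22, a net difference of −1.30 ± 0.18 (adjusted p = 0.0195, edgeR quasi-likelihood test). The adjusted p of its early step was 0.0577. Xaf1, an interferon-induced binder of the inhibitor of apoptosis XIAP, had 18.4 and 27.9 CPM on day 10, 6.78 and 7.51 CPM on day 16, and 10.2 and 6.95 CPM on day 22. Its net difference was −1.44 ± 0.25 (adjusted p = 0.0461, edgeR quasi-likelihood test). Of the low genes, Oasl2 had at most 1.07 CPM in any later mouse, against 3.53 and 5.88 CPM on day 10. Rtp4 had at most 0.727 CPM in any later mouse, against 3.13 and 9.81 CPM on day 10. Both fell in the net comparison. Among genes outside the list, named here after their values were seen, Mndal of the HIN-200 family, Oasl1, Cmpk2, Pyhin1, Rnf213 and Ifitm3, an antiviral membrane protein, were also lower at day 22 than at day 10. Ifitm3 had 9.80 and 18.2 CPM on day 10, 1.07 and 2.18 CPM on day 16, and 2.62 and 2.17 CPM on day 22 and was the 1 of these 6 called in the early step. Without day 22 mouse 1 the net calls of these 6 and of Oasl2 and Rtp4 were all lost, with −3.08, −3.05, −2.06, −0.81, −1.13 and −2.73 for the 6 in that order and −2.46 for Oasl2. Rtp4 had 0 UMIs in day 22 mouse 2, so its fitted value there is not given. Without day 10 mouse 2 the net calls of the 6 and of Oasl2 were lost as well, and Rtp4 was not tested. Those of Oasl1, Oasl2 and Rnf213 were lost whichever single mouse was left out (−3.05 to −2.49, −2.82 to −2.07 and −1.31 to −1.13). The calls of Cmpk2, Pyhin1 and Rtp4 were also lost without either day 16 mouse, and those of Ifitm3 and Rtp4 without day 22 mouse 2.

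Other genes of the response were not called with every gene in the fit. Ly6e, another Ly6 family member, had 1484 and 1526 CPM on day 10, 1573 and 1414 CPM on day 16, and 1391 and 1489 CPM on day 22, a net difference of −0.06 ± 0.06 that did not pass (adjusted p = 0.798, edgeR quasi-likelihood test). The groups overlapped. Stat2 was at 12.5 and 16.7 CPM on day 10, 13.2 and 14.8 CPM on day 16, and 14.2 and 15.4 CPM on day 22 and did not pass either (−0.02 ± 0.19). Ifi27l2a, the most abundant list member after Ly6e, had 503 and 1061 CPM on day 10, 335 and 314 CPM on day 16, and 310.2 and 344 CPM on day 22. Both day 10 mice lay above the other 4, but they differed from each other by more than any later pair, and the net difference of −1.26 ± 0.26 did not pass (adjusted p = 0.0810, edgeR quasi-likelihood test). Irf9, Usp18 and Isg15 had negative net differences of −0.99, −2.29 and −1.01 that did not pass. Without immunoglobulin genes in the edgeR fit 4 of these were called, Ifi27l2a at −1.28 (adjusted p = 4.6e-07), Irf9 at −1.03 (adjusted p = 0.000433), Usp18 at −2.35 (adjusted p = 0.000257) and Isg15 at −1.04 (adjusted p = 0.00359).

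The size of the interferon differences held better than the calls when single mice were left out. Without day 10 mouse 2, the highest of the 6 mice for each of them, Irf7 and Trim30a differed by −1.16 and −0.96 in the early step and Bst2, Xaf1 and Ifi203 by −1.01, −1.08 and −2.84 net, none of them called. Trim30a was called without day 10 mouse 1 (−1.29) and not without any other single mouse (−1.33 and −0.96 without the day 16 mice, −1.15 without either day 22 mouse). Irf7 also lost its call without day 16 mouse 1 (−1.21) or mouse 2 (−1.30). Dhx58 kept its call only without day 22 mouse 2, with −1.27, −1.14, −1.32, −1.10 and −1.22 without day 10 mice 1 and 2, day 16 mice 1 and 2 and day 22 mouse 1. Bst2 lost its call without day 22 mouse 1 (−1.33) or mouse 2 (−1.26), and Ifi203 without day 22 mouse 1 (−2.89). Xaf1 kept its call only without day 10 mouse 1 (−1.68), with −1.44 without either day 16 mouse, −1.76 without day 22 mouse 1 and −1.21 without day 22 mouse 2. The count of list genes lower at day 22 than at day 10 was 1 without day 10 mouse 2 or day 22 mouse 1, 3 without day 22 mouse 2, 4 without either day 16 mouse and 9 without day 10 mouse 1. With immunoglobulin genes out of the fit 17 of the 26 passed over the 3 days, against 2.22% of all genes, and 16 fell and 0 rose in the early step, against 0.559% that fell.

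The phase of the cell cycle, as called by the authors, went with the size of the Irf7 difference. In G2M cells alone the early difference was −1.60 and called, in S cells −1.50 and in G1 cells −0.49, neither called. The G1 cells had 43.9 and 66.6 CPM on day 10, 35.6 and 46.0 on day 16 and 30.4 and 35.0 on day 22, so that days 10 and 16 overlapped there. Balancing the phases between mice left the early difference at −1.25. Lgals9 was called in each phase alone, with net differences of −2.53 in G1, −2.63 in S and −2.95 in G2M.

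**Figure D1:**
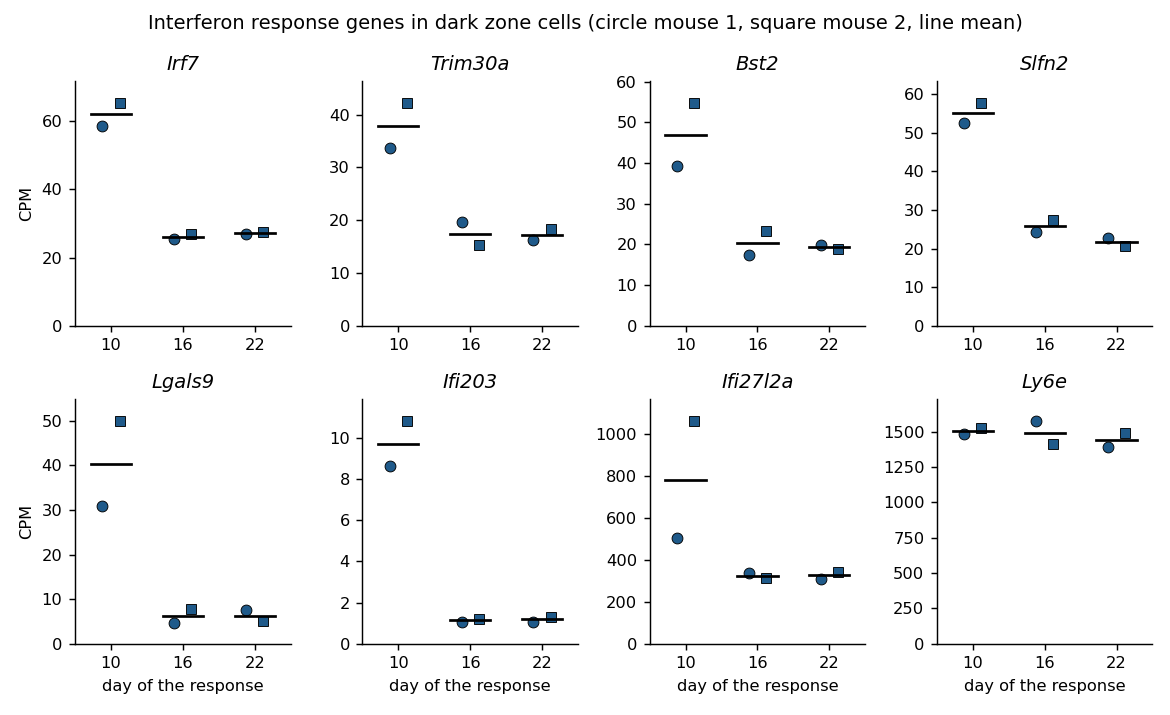
CPM (vertical axes, linear from 0) of 6 genes of the interferon list and of Lgals9 and Slfn2 in dark zone cells on days 10, 16 and 22 (horizontal axes), with 1 point per mouse and a line at the mean of the 2 mice. The day 10 points stand above the 4 later points in every panel except Ly6e, and the later days lie close together, as for Irf7 at 25.4 and 26.9 on day 16 and 26.8 and 27.4 on day 22.

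Genes outside the interferon list fell early as well. Lgals9 encodes galectin-9, a lectin that binds glycans on surface proteins, B cell receptors among them. It had 31.0 and 49.8 CPM on day 10, 4.64 and 7.76 CPM on day 16, and 7.55 and 5.00 CPM on day 22. The early difference was −2.68 ± 0.31 (adjusted p = 0.0202, edgeR quasi-likelihood test) and the late one was near 0 (SE 0.36). Without day 10 mouse 2 the net difference was −2.27 and not called. Slfn2, a schlafen family gene known to keep T cells quiescent, had 52.5 and 57.7 CPM on day 10, 24.3 and 27.4 CPM on day 16, and 22.8 and 20.6 CPM on day 22, an early difference of −1.09 ± 0.13 (adjusted p = 0.0202, edgeR quasi-likelihood test), and its net difference was called without any single mouse (−1.42 to −1.26). Sdc4, the heparan sulphate carrier syndecan-4, named here after its values were seen, had 18.8 and 18.4 CPM on day 10, 3.21 and 4.85 CPM on day 16, and 2.62 and 3.91 CPM on day 22. Its early difference was −2.16 ± 0.28 (adjusted p = 0.0307, edgeR quasi-likelihood test). Its net call was lost without day 10 mouse 2 (−2.54) or day 22 mouse 1 (−2.24).

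A further 4 genes named by rule were lower at day 22 than at day 10. Cd72, an inhibitory co-receptor of the B cell receptor, had 88.6 and 103 CPM on day 10, 52.1 and 38.3 CPM on day 16, and 30.8 and 46.0 CPM on day 22. Its net difference was −1.33 ± 0.20 (adjusted p = 0.0234, edgeR quasi-likelihood test), of which 0.82 had been reached by day 16. It was the 1 of 21 tested B cell receptor signalling genes that passed, beside 0.706% of all genes. Cd22, a related inhibitor, was not called (0.37 ± 0.10), nor was the adaptor Bank1 (−0.67 ± 0.13). Without immunoglobulin genes in the edgeR fit both were called, Cd22 higher by 0.37 (adjusted p = 0.0252) and Bank1 lower with −0.70 (adjusted p = 3.2e-05), so that the list had 1 gene higher and 2 lower there. Without day 10 mouse 2 or day 22 mouse 1 Cd72 differed by −1.21 or −1.06 and was not called. Ly6d, a lipid-anchored protein of the B lineage, had values that were lower in both steps, neither called alone: 114 and 146 CPM on day 10, 97.8 and 80.5 CPM on day 16, and 45.8 and 61.5 CPM on day 22. Its net difference was −1.29 ± 0.17 (adjusted p = 0.0114, edgeR quasi-likelihood test), and without immunoglobulin genes in that fit both steps were called (adjusted p = 0.00412 and 0.00625). It was −1.09 without day 10 mouse 2 and −1.08 without day 22 mouse 1, not called. Uchl1, a deubiquitinating enzyme known from germinal centre B cells, had 25.5 and 18.4 CPM on day 10, 4.64 and 8.00 CPM on day 16, and 4.16 and 3.69 CPM on day 22, a net difference of −2.44 ± 0.29 (adjusted p = 0.00719, edgeR quasi-likelihood test). Without day 22 mouse 1 it was −2.53 and not called. St3gal6, which adds sialic acid to glycans, had 20.4 and 29.6 CPM on day 10, 10.0 and 16.2 CPM on day 16, and 9.09 and 9.56 CPM on day 22 and a net difference of −1.45 ± 0.25 (adjusted p = 0.0438, edgeR quasi-likelihood test). It was not called without day 10 mouse 2 (−1.12) or without day 22 mouse 1 (−1.41) or mouse 2 (−1.49).

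The genes that rose included regulators of G protein signalling, the ecto-enzyme Nt5e, factors of the TOX family and the germinal centre factor Mef2b. Regulators of G protein signalling speed up the switching off of G proteins below chemokine receptors. Rgs13 (chr1:144138654-144177372, minus strand), the member best known from germinal centre B cells, had 145 and 167 CPM on day 10, 271 and 234 CPM on day 16, and 336 and 363 CPM on day 22. The 3 days did not overlap. The early difference was 0.69 ± 0.10 (adjusted p = 0.0392, edgeR quasi-likelihood test), the late one 0.47 ± 0.10 (adjusted p = 0.607, not called) and the net one 1.16 ± 0.10. Without immunoglobulin genes in the edgeR fit both steps were called (adjusted p = 1.0e-05 and 0.00625). The net difference was called without any single mouse (1.06 to 1.27) and in G1, S and G2M cells alone (0.98, 1.02 and 1.32). Rgs10 had 79.5 and 77.9 CPM on day 10, 153 and 126 CPM on day 16, and 182 and 152 CPM on day 22 and rose by 0.82 ± 0.12 in the early step (adjusted p = 0.0392, edgeR quasi-likelihood test). Its net difference was 1.09 ± 0.12, and 1.08 and not called without day 10 mouse 2. Rgs18, of the same family, was at 0.462 and 1.09 CPM on day 22, against 6.27 and 5.69 CPM on day 10. It fell in the net comparison (adjusted p = 0.0438, edgeR quasi-likelihood test), a call lost whichever single mouse was left out (−3.60 to −2.41).

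Nt5e (chr9:88327197-88372092, plus strand), the enzyme CD73 that makes extracellular adenosine, had 14.5 and 12.9 CPM on day 10, 35.4 and 26.7 CPM on day 16, and 35.3 and 34.5 CPM on day 22. Both later days lay above day 10 and overlapped. The early difference was 1.18 ± 0.17 (adjusted p = 0.0392, edgeR quasi-likelihood test) and the late one 0.19 ± 0.15, so that 0.86 of the net log2 difference had been reached by day 16. The net difference was 1.27 without day 10 mouse 2 and 1.35 without day 22 mouse 1, and not called. Osbpl3, a lipid-binding protein of the oxysterol-binding family, had 11.4 and 9.02 CPM on day 10, 24.3 and 25 CPM on day 16, and 36.7 and 30.6 CPM on day 22, with 1.31 ± 0.18 in the early step (adjusted p = 0.0392, edgeR quasi-likelihood test) and 1.76 ± 0.17 net. Emp2, a tetraspan membrane protein known from epithelia, had the largest net difference of the rising genes named by rule: 9.40 and 16.5 CPM on day 10, 30.0 and 31.3 CPM on day 16, and 62.0 and 53.9 CPM on day 22. The days did not overlap. Its early and late differences were 1.17 ± 0.21 and 0.92 ± 0.18, neither called alone, and the net one 2.09 ± 0.20 (adjusted p = 0.00194, edgeR quasi-likelihood test). Without immunoglobulin genes in the edgeR fit both steps were called (adjusted p = 0.000403 and 0.00258). Osbpl3 and Emp2 stayed called without any single mouse (1.58 to 1.90 and 1.81 to 2.63).

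Tox and Tox2, transcription factors with an HMG box known from T cells, rose together in the net comparison. Tox had 26.3 and 22.0 CPM on day 10, 41.1 and 35.4 CPM on day 16, and 50.2 and 54.7 CPM on day 22, a net difference of 1.14 ± 0.14 (adjusted p = 0.00734, edgeR quasi-likelihood test). Tox2 had 12.9 and 9.22 CPM on day 10, 25 and 20.4 CPM on day 16, and 30.7 and 33.5 CPM on day 22, a net difference of 1.58 ± 0.19 (adjusted p = 0.00722, edgeR quasi-likelihood test). In both, 0.59 and 0.68 of the net log2 difference had been reached by day 16, and neither step was called alone. Without day 10 mouse 2 they differed by 1.00 and 1.31 and were not called. Fes, a cytoplasmic tyrosine kinase, was the 1 non-immunoglobulin gene whose change came late by its share: 10.6 and 9.81 CPM on day 10, 11.4 and 11.9 CPM on day 16, and 21.3 and 18.9 CPM on day 22. Its late difference was 0.79 ± 0.17 and its net one 0.99 ± 0.18 (adjusted p = 0.0466, edgeR quasi-likelihood test). The Fes call was lost without any single mouse (0.90 to 1.07).

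**Figure D2:**
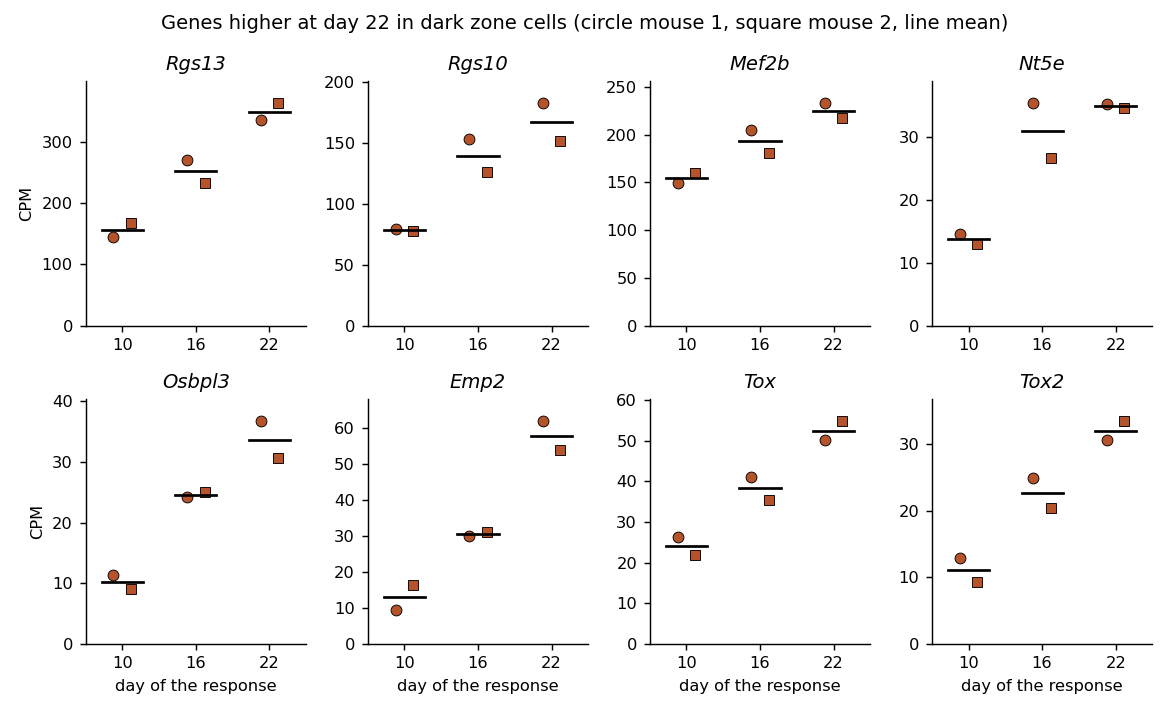
CPM (vertical axes, linear from 0) of 8 genes higher at day 22 than at day 10 in dark zone cells, by day of the response (horizontal axes), with 1 point per mouse and a line at the mean of the 2 mice. Rgs13 and Emp2 lie higher on each later day, while Nt5e lies at 35.4 and 26.7 on day 16 and at 35.3 and 34.5 on day 22.

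Most genes that define the dark zone were not called. Of 27 tested genes of dark zone and germinal centre identity, 2 rose at day 22 against 10 and 0 fell, beside 0.706% of all genes. They were Rgs13 and Mef2b, a transcription factor that helps to switch on Bcl6. Mef2b had 149.7 and 160.1 CPM on day 10, 205 and 181 CPM on day 16, and 233 and 217 CPM on day 22, a net difference of 0.54 ± 0.09 (adjusted p = 0.0334, edgeR quasi-likelihood test), and 0.49 and not called without day 22 mouse 1. It was not called without either day 10 mouse or day 22 mouse 2. Cxcr4 had 39.6 and 30.0 CPM on day 10, 33.2 and 26.4 CPM on day 16, and 29.0 and 31.9 CPM on day 22, and the groups overlapped. The net differences were −0.17 ± 0.17 for Cxcr4, 0.16 ± 0.10 for Foxo1, 0.09 ± 0.14 for the germinal centre factor Bcl6 and −0.12 ± 0.07 for the proliferation gene Mki67, none of them called. Without immunoglobulin genes in the edgeR fit 4 of the 27 were higher at day 22 than at day 10 and 2 lower, beside 1.55 and 1.49% of all genes. Lmo2 and S1pr2 were added to the higher ones, with 0.67 (adjusted p = 0.0267) and 0.33 (adjusted p = 0.0241), and Foxp1 and Cd24a were lower, with −0.32 (adjusted p = 0.0243) and −0.29 (adjusted p = 0.0112).

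Genes of division and growth were not called with every gene in the fit. Of 26 G2 and M phase genes tested 0 passed, while in 15 both day 22 mice lay below both day 10 mice, against 21.4% of all genes, and the list's median net log2 difference was −0.19. The share of cells called G2M was 37.4 and 43.7% on day 10, 34.8 and 36.8% on day 16, and 33.2 and 34.2% on day 22. Over the 90 ways to place 6 mice in 3 days its linear trend with the day gave an exact permutation p of 0.0222, two-sided, the smallest this design allows, and 0.2 adjusted over 9 quantities. Of 40 cytosolic ribosomal protein genes 0 passed, 35 lay lower in both day 22 mice than in both day 10 mice, and the median was −0.11. The median UMIs per cell were 10420 and 10716 on day 10, 8211 and 9728.5 on day 16, and 8832 and 8538 on day 22 (exact permutation p = 0.0667, 0.2 adjusted). Of S phase genes (26), histone genes (32), glycolysis (15), oxidative phosphorylation (20) and MHC class II genes (14), 0 passed in each comparison. The same held for Myc response and ribosome biogenesis (26), light zone and activation (22), survival and apoptosis (20), chromatin regulators (21) and endoplasmic reticulum and secretion genes (28). Without immunoglobulin genes in the edgeR fit, where 3.04% of all genes passed, some of these lists held calls at day 22 against 10. The mitotic genes Cenpe and Tpx2 were lower, with −0.32 (adjusted p = 0.0365) and −0.31 (adjusted p = 0.0175), and the ribosomal genes Rps2, Rpl10a and Rplp0 were lower, with −0.24 (adjusted p = 0.00735), −0.20 (adjusted p = 0.0400) and −0.18 (adjusted p = 0.0467). The light zone and activation genes Egr1 and Lta were higher by 0.83 (adjusted p = 0.00270) and 0.50 (adjusted p = 0.00282), and Fcer2a was lower. In the histone list 1 gene was lower and in the survival list 1 was higher. The S phase, Myc response, glycolysis, oxidative phosphorylation, MHC class II, chromatin and endoplasmic reticulum lists had 0 calls there too.

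Calls and shares were used to sort the genes by the time of their change. Of the 36 genes called over the 3 days, 18 were called in the early step alone, 4 in the late step alone, 1 in both steps with opposite signs and 13 in neither step alone. All 4 late genes and the 1 with opposite signs were immunoglobulin genes, and 13 of the 18 early ones were not. This order turned with the fit: without immunoglobulin genes in it, 71 of the 207 genes were called in the early step alone, 5 in the late step alone, 3 in both steps the same way and 128 in neither alone. The 3 were Emp2, Rgs13 and Ly6d. Of the 67 genes called at day 22 against 10, 28 had reached at least 0.75 of the net log2 difference by day 16. Of these 9 were higher and 19 lower at day 22. Another 33 lay between 0.25 and 0.75, with 20 higher and 13 lower, 5 were late and 1 had gone past its final level. The early step and the late step share the day 16 mice, so a high day 16 value raises one and lowers the other. The difference in order between rising and falling genes was not tested. With cutoffs of 0.67 and 0.33 there were 38 early, 20 gradual and 8 late genes.

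Genes outside the named set, given here after their values were seen, filled in both patterns. Among the gradual risers were Ell3, a transcription elongation factor (58.3, 78.8 and 93.2 CPM, means of days 10, 16 and 22, n = 2 mice each), Idh2, the mitochondrial isocitrate dehydrogenase (64.9, 87.0 and 103 CPM), and Pafah1b3, a catalytic subunit of platelet-activating factor acetylhydrolase 1b (378, 411 and 520.3 CPM). Early risers included the zinc finger factor Zbtb20 (121, 173 and 189.7 CPM) and the linker histone variant H1fx (61.3, 85.7 and 90.9 CPM). S100a11, a calcium-binding protein, fell gradually (77.0, 56.8 and 42.3 CPM), as did the membrane-to-actin linker Rdx (11.1, 3.02 and 0.928 CPM). The SDs of these means are 5.45, 11.3 and 0.222 CPM for Ell3, 4.47, 24.3 and 31.2 for Pafah1b3 and 0.895, 2.93 and 7.48 for S100a11. The net log2 differences were 0.67 ± 0.12, 0.66 ± 0.10, 0.46 ± 0.07, 0.65 ± 0.08, 0.56 ± 0.10, −0.87 ± 0.13 and −3.57 ± 0.58 for Ell3, Idh2, Pafah1b3, Zbtb20, H1fx, S100a11 and Rdx (adjusted p = 0.0114 to 0.0466, edgeR quasi-likelihood test). Without day 22 mouse 1 they were 0.67, 0.67, 0.40, 0.61, 0.59, −0.69 and −3.31 in the same order, and 0 of the 7 were called. Without day 10 mouse 2 likewise 0 of the 7 were called.

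**Figure D3:**
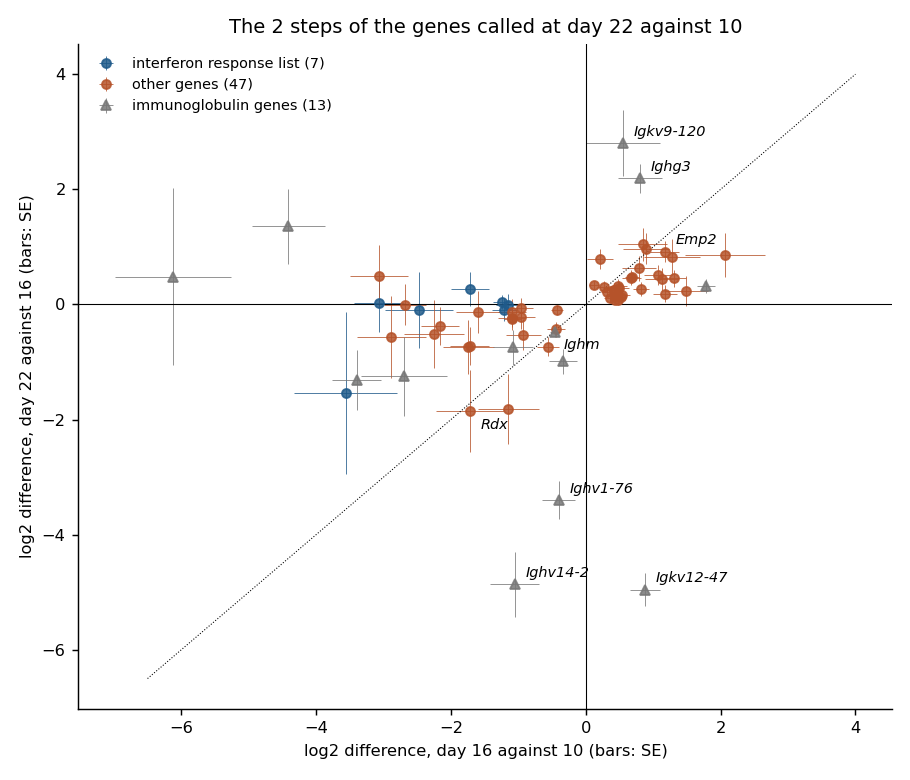
Log2 difference of day 16 against 10 (horizontal axis) and of day 22 against 16 (vertical axis) for the 67 genes called at day 22 against 10, with bars of 1 SE and a dotted line where both steps are equal. The 7 interferon list genes lie left of 0, Irf7 for example at −1.25 and 0.05, rising genes such as Rgs13 lie right of 0, and the late genes far above or below 0 are immunoglobulin genes such as Ighg3 and Igkv12-47.

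All 5 genes called in the late step with every gene in the fit were immunoglobulin genes, the pseudogene Igkv12-47 among them. With all immunoglobulin genes out of the fit 8 other genes passed in that step, 6 higher and 2 lower, with Emp2 at 0.92 (adjusted p = 0.00258), Rgs13 at 0.47 (adjusted p = 0.00625), Tyrobp at 2.08 (adjusted p = 0.0280), Ly6d at −0.74 (adjusted p = 0.00625) and Vim at −0.64 (adjusted p = 0.0185) in that edgeR fit. Without the filter on low counts 33 of 157 late calls were other genes, and by DESeq2's test 2 of 10. Ighm, the μ constant region of unswitched antibody (chr12:113418558-113422730, minus strand, GRCm38), had 524 and 572 CPM on day 10, 386 and 409 CPM on day 16, and 294 and 273 CPM on day 22. The days did not overlap. The early and late differences were −0.46 ± 0.07 and −0.49 ± 0.07 (adjusted p = 0.0608 and 0.133, neither called) and the net one −0.95 ± 0.07 (adjusted p = 0.00128, edgeR quasi-likelihood test). It was called without any single mouse (−1.01 to −0.88). Ighg3, the γ3 constant region (chr12:113356224-113361232, minus strand), had 4.31 and 3.14 CPM on day 10, 4.64 and 7.51 CPM on day 16, and 31.6 and 25.6 CPM on day 22. It rose late, by 2.19 ± 0.25 (adjusted p = 0.0213, edgeR quasi-likelihood test), and the early difference was 0.80 ± 0.33. Cells with at least 3 Ighg3 UMIs numbered 0 and 0 on day 10, 2 and 4 on day 16 and 30 and 17 on day 22. Of the 8 heavy chain constant genes these 2 passed over the 3 days, beside 6.15% of all immunoglobulin genes. Ighg1 was at 226 and 190.1 CPM on day 10, 208 and 232 CPM on day 16, and 164 and 246 CPM on day 22 and was not called (−0.02 ± 0.17 net). Ighg2b and Ighg2c had means of 99.1 and 24.8 CPM on day 22, against 53.7 and 7.25 CPM on day 10, and were not called. Constant regions of the γ genes are alike in sequence, and how their shared reads were counted is not given in the sources used here.

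Variable genes moved in both steps, and a functional one stands for the B cell clones that carry it. Igkv12-47 is annotated as a variable pseudogene in GENCODE M21, so it cannot be read as the receptor of such clones. What its reads stand for was not tested. Igkv12-47 had 83.5 and 51.8 CPM on day 10, 116 and 128 CPM on day 16, and 4.93 and 2.61 CPM on day 22, a late difference of −4.95 ± 0.29 (adjusted p = 0.000275, edgeR quasi-likelihood test). Ighv1-76 and Ighv14-2 also fell late, to 1.39 and 3.91 and to 0.771 and 2.61 CPM on day 22, against 28.2 and 24.7 and 35.0 and 55.7 CPM on day 16. The UMIs sat in few cells: cells with at least 3 of Igkv12-47 numbered 2 and 3, 8 and 9 and 1 and 0 in the mice of days 10, 16 and 22. Igkv1-88, which fell early and was at 69.4 and 18.2 CPM in the day 10 mice, had 1 such cell in each of them. Igkv9-129 fell early with 3 and 1 such cells in the day 10 mice, and Igkv8-28 with 1 and 5. UMIs of 1 cell are not independent, and the test takes them as counts of a mouse. Ighv1-22 rested on more cells, 7 and 12, 34 and 43 and 161 and 79 in the mice of days 10, 16 and 22. It had 60.0 and 54.9 CPM on day 10, 184 and 210.4 CPM on day 16, and 275 and 214 CPM on day 22, and rose early by 1.78 ± 0.13 (adjusted p = 0.00222, edgeR quasi-likelihood test). Igkv9-120 had 531 and 139 CPM on day 10, 316 and 650.5 CPM on day 16, and 4437 and 2323 CPM on day 22, a net difference of 3.35 ± 0.59 (adjusted p = 0.0461, edgeR quasi-likelihood test). Igkv9-120 lost this call without day 10 mouse 2 (2.67), either day 16 mouse (3.35) or day 22 mouse 1 (2.82). Its cells with at least 3 UMIs numbered 15 and 21, 19 and 35 and 270 and 107. It was the leading kappa gene in 244 of 621 DZ cells of day 22 mouse 1 and in 79 of 468 of day 22 mouse 2, against 7 to 14 cells of each earlier mouse. Variable genes are near-copies of each other, and receptor sequences were not used here, so reads of like genes may be split between them.

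The large Igkv9-120 group was left out as an alternative chosen after seeing the data. Over the 3 days 33 genes then passed, 22 in the early step, 4 in the late step and 40 at day 22 against 10, and 30, 18, 4 and 36 of these had been called with those cells. Rgs13, Emp2 and Osbpl3 differed by 1.22, 2.11 and 1.57 at day 22 against 10, all called. Bst2, Xaf1, Fes and St3gal6 were not called (−1.10, −1.20, 1.17 and −1.36).

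**Figure D4:**
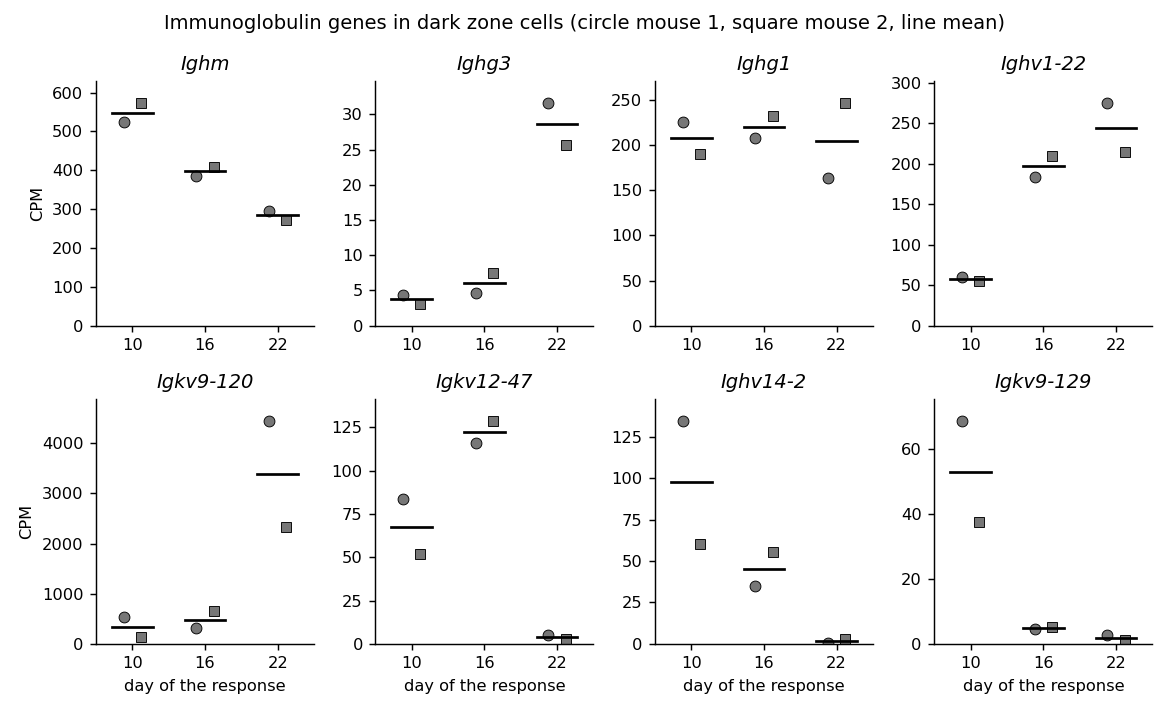
CPM (vertical axes, linear from 0) of 8 immunoglobulin genes in dark zone cells by day of the response (horizontal axes), with 1 point per mouse and a line at the mean of the 2 mice. Ighm lies lower on each later day, Ighg3 and Igkv9-120 stand high in both day 22 mice, Igkv12-47 and Ighv14-2 lie near 0 there, and Igkv9-129 is high in the day 10 mice alone.

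Whether these changes were particular to the dark zone was tested against the 3116 light zone cells of the same mice. The state by day term, with the mouse as a block, passed for 17 of 9905 genes (0.172%). All 17 were among 204 immunoglobulin genes (8.33%). Of 9701 other genes 0 passed, with 316 (3.26%) at an unadjusted p under 0.05 in this edgeR test. In some fits with a single mouse left out other genes did pass. The term was not refitted without immunoglobulin genes. The light zone cells alone gave 40 genes in the early step (0.411%), 5 in the late (0.0514%) and 149 at day 22 against 10 (1.53%). A term that misses the threshold does not show equal change, so the intervals are given. Irf7 had 32.2 and 25.4 CPM in LZ cells on day 22, against 42.3 and 54.3 CPM on day 10. The dark minus light zone difference of its net log2 difference was −0.43 (95% interval −0.78 to −0.08). For Rgs13 it was 0.02 (95% interval −0.14 to 0.18), with LZ levels of 372 and 374 CPM on day 22 and 149 and 186 CPM on day 10. For Emp2 it was −0.07 (95% interval −0.73 to 0.60), for Slfn2 −0.54 (95% interval −0.81 to −0.28), for Lgals9 −0.65 (95% interval −1.27 to −0.03) and for Ighm 0.22 (95% interval 0.01 to 0.44). The 95% intervals here use the normal multiple of the SE and are not adjusted for the number of genes. A multiple suited to so few mice would make them wider. Those with an end near 0, such as for Lgals9 and Ighm, therefore do not show a difference. Nt5e had the interval farthest from 0 among the named genes outside the immunoglobulins, 0.95 (95% interval 0.51 to 1.40) (adjusted p = 0.329 over both day terms, edgeR quasi-likelihood test). Its LZ cells had 14.6 and 15.6 CPM on day 22, against 11.9 and 10.8 CPM on day 10.

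**Figure D5:**
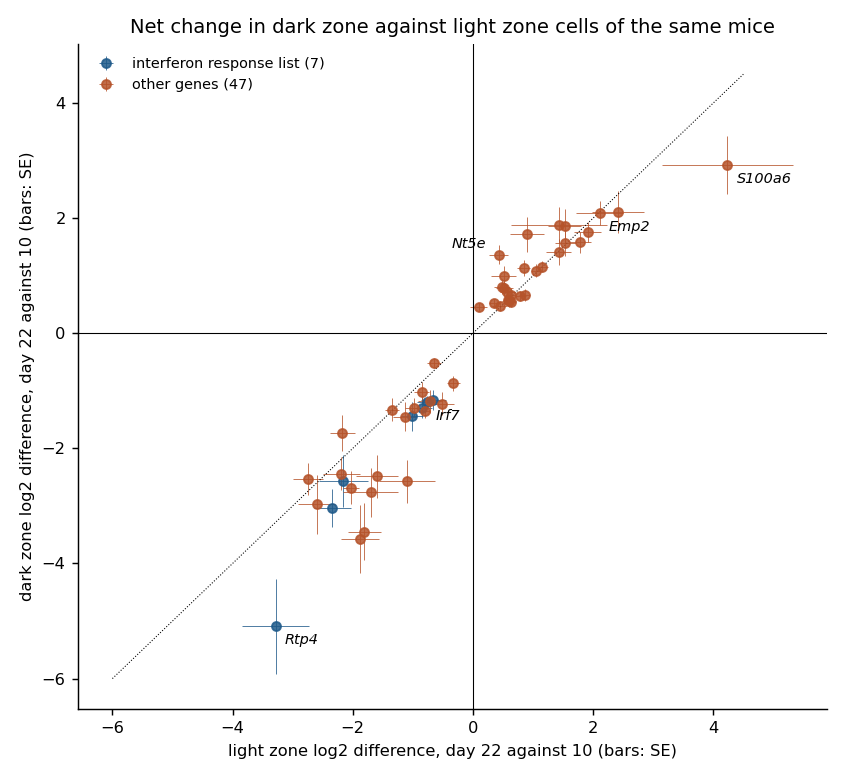
Log2 difference of day 22 against 10 in dark zone cells (vertical axis) and light zone cells of the same mice (horizontal axis) for the 54 non-immunoglobulin genes called in dark zone cells, with bars of 1 SE and a dotted line of equality. Nt5e lies above the line at 1.36 in dark zone and 0.43 in light zone cells, and Rtp4, the lowest point, at −5.09 and −3.29. The genes were chosen on the vertical axis, so their distance from the line is a description.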

How the data were processed

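The deposited matrix holds raw UMI counts for 14493 genes in 6619 cells. The authors' deposited cell table gives the total count, a phase call, a state, a day and a mouse for each cell, and module scores (unit: score). The authors used Cell Ranger and Seurat with mm10/GRCm38, per the submitters' processing notes. Versions, the rule for states and phases, strand use in counting and the treatment of doublets are not given in the sources used here. Matrix sums equalled the table in 6619 cells. No cell was removed and no doublet caller was run.

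Counts of DZ cells were summed per mouse and fitted with edgeR 4.0.16 in R 4.3.3 (TMM, filterByExpr, quasi-likelihood F test, day as factor, Benjamini-Hochberg over genes), with DESeq2 1.42.0 as an alternative. The replicate is the mouse, with 2 a day. Spread is partly shared between genes in these fits, so p-values rest on more than the 2 mice of a day. SEs are taken from the fitted difference and its F value. Per-mouse quantities had exact permutation tests in Python 3.11.15 (scipy 1.17.1, pandas 2.3.3, numpy 2.4.6). The edgeR step was tested on simulated data.

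Genes named by rule were the 8 largest net differences and 5 largest of each step in each direction, called, with at least 20 CPM in the higher day and mice of the 2 days not overlapping, without immunoglobulin, mitochondrial and predicted genes, plus up to 4 members of each list with the lowest p and 5 dark zone genes. Some genes that the rule names are not reported here. Members and lists were chosen with earlier results of these data known, and no list was tested as a set. Alternatives were other size factors, DESeq2's test, no filter, no immunoglobulin genes, thinned cells, balanced phases and each mouse left out. Positions are from GENCODE M21, promoters from RefSeq (GRCm38.p6), matched by symbol for 7139 of the 9487 genes tested. The Clopper-Pearson intervals cover counting error only. The intervals of the state by day term come from the fit over mice, with the normal multiple of the SE.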

Additional observations from a re-analysis of the deposited data

Results flagged for a closer look

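The change with the day differed between dark and light zone cells for 2 kappa variable genes that also passed over the 3 days, by the state by day test in edgeR. For Igkv8-28 the dark minus light zone difference of the net log2 difference was −2.15 (adjusted p = 0.00570), with 12.9 and 3.48 CPM in DZ cells on day 22, against 54.5 and 87.3 CPM on day 10. For Igkv9-129 it was −6.56 (adjusted p = 0.0160), with 2.62 and 1.09 CPM in DZ cells on day 22, against 68.6 and 37.5 CPM on day 10. Both rest on at most 5 DZ cells of a mouse with at least 3 UMIs of the gene. Groups of 2 mice are too small to look for outliers among samples.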

How the results depend on the processing

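No paired analysis was possible because each mouse was taken on 1 day, so that replicate numbers name mice and pair nothing across days. The counts below are in the order 3 days, early step, late step and day 22 against 10, beside 36, 20, 5 and 67. DESeq2's size factors left all 4 as they were, and balanced phases gave 38, 20, 5 and 66. DESeq2's own test gave 78, 38, 10 and 75, of which 34, 19, 5 and 54 were shared. No filter on low counts gave 464, 275, 157 and 474. The fit without immunoglobulin genes gave 207, 76, 8 and 283. Cells thinned to 5368 UMIs, with 234 shallower cells left out, gave 31, 3, 3 and 46, with 38 of the 67 shared. The added alternatives gave 17, 3, 4 and 18 in G1 cells, 20, 8, 1 and 24 in S cells, 32, 14, 3 and 31 in G2M cells, and 33, 22, 4 and 40 without the cells led by Igkv9-120. Each phase holds fewer cells than the whole. For the other moved counts the cause was not tested. Leaving out 1 mouse at a time gave 14 to 62, 3 to 32, 3 to 17 and 17 to 69, and 9 to 31 genes in place of 17 for the state by day term. With cutoffs of 0.67 and 0.33, 20 genes were gradual and 8 late, in place of 33 and 5. The share of S cells differed by −0.33 percentage points between day 22 and day 10 and by 1.83 among cells above the thinning depth (exact permutation p = 0.467). Of 428 values for 27 named genes under the alternatives, 333 kept their direction and side of the threshold, 95 lost their call and 0 changed sign while called. With 2 mice a day, leaving out 1 leaves a lone mouse that is taken to vary like the others.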

Other observations

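Day 22 mouse 1 held a large group of dark zone cells with few Y chromosome UMIs, measured as the sum of Ddx3y, Eif2s3y, Kdm5d and Uty. Igkv9-120 was the kappa variable gene with the most UMIs (at least 3) in 244 of its 621 DZ cells, or 39.3% (exact Clopper-Pearson 95% interval 35.4 to 43.3%). Of these 244 cells, 153 had Ighv1-22 as the leading heavy variable gene. The 4 Y-linked genes summed to 18.9 CPM in the 244 cells and to 88.8 CPM in the other DZ cells of that mouse. In day 22 mouse 2 the 79 cells led by Igkv9-120 had 159 CPM and the others 163 CPM. No Y-linked UMI was found in 82.0% of the 244 cells, against 19.0% of the 79 cells, with median depths of 10400.5 and 10279 UMIs. The light zone cells of day 22 mouse 1 had 89.7 CPM, against 143 to 157 CPM in the light zone cells of the other 5 mice. Xist had 0 UMIs in DZ and LZ cells of all 6 mice. What sets these cells apart was not tested.

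The leading kappa gene of a mouse took 6.07 and 8.21% of the DZ cells in the day 10 mice (Igkv6-15 and Igkv14-111), 10.6 and 11.5% in the day 16 mice (Igkv1-135 and Igkv10-96), and 39.3 and 16.9% in the day 22 mice (Igkv9-120 in both). The 3 days did not overlap in this share, which has no test here. The share of the non-PC cells named DZ was 38.7 and 28.5% on day 10, 38.6 and 36.6% on day 16, and 46.7 and 40.2% on day 22 (exact permutation p = 0.111, 0.24 adjusted over 9 quantities).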
